A study of Mus musculus with 4 samples.

Results

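The mitosis genes are 35 mouse genes, taken from a list of names, whose products carry a cell into and through mitosis. They are 35 of 54115 genes with transcripts in the files, and all 35 were among the 18758 genes with enough reads to be tested. RNA-seq libraries were made from whole tumours that formed after MC38 cells, a mouse line derived from a colon adenocarcinoma, were injected into mice, and each group has 2 libraries. The saline group had received 10 daily intraperitoneal injections of saline, and the vanoxerine group the same number of injections of vanoxerine, an inhibitor of the dopamine transporter, at 25 mg/kg. All 4 libraries therefore came from the same injected line and from mice that were injected every day. The labels do not say which strain, sex and age the mice had or whether each library is a separate animal, so the p-values measure the spread between these libraries only.

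The libraries held 67289273 to 75748162 estimated reads, of which the mitosis genes took 0.288% to 0.293% in every library. Mitochondrial genes took 3.49% and 2.59% of the reads in saline and 2.79% and 2.74% in vanoxerine. The tissue label names colon adenocarcinoma, and the markers of colon epithelium were low in all 4 libraries. Cdx2, a transcription factor of intestinal epithelium, was at 0 reads in each. In whole tumours, fewer dividing cells and less RNA per dividing cell cannot be told apart, and neither can tumour cells and other dividing cells.

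Mitosis is started by cyclin-dependent kinase 1 bound to cyclin A or cyclin B, together with the Polo-like and Aurora kinases. Kinetochores then attach chromosomes to spindle microtubules, and the spindle checkpoint holds the anaphase-promoting complex inactive until every chromosome is attached. After the sister chromatids separate, the central spindle and a contractile ring divide the cell. Most of these genes are transcribed mainly in G2 and M phase, and Mki67 and Top2a are widely used as markers of dividing cells in tumours.

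Many G2 and M phase promoters carry 2 short elements, the cell cycle genes homology region (CHR, letters TTTGAA), which the DREAM and MYB-MuvB complexes bind, and the CCAAT box (letters CCAAT), which NF-Y binds. Promoter sequences from RefSeq (GRCm38.p6, 250 bases before to 50 after the gene start) matched 28 of the 35 genes, some of them with more than one listed start. The others were Tpx2, Foxm1, Cdc25c, Ccna2, Aurkb, Incenp and Kif20a. On either strand, the CHR letters occurred in 22 of the 28 (78.6%), against 20.2% of 27025 genes with a promoter of the same length. The CCAAT letters occurred in 22 (78.6%), against 41.1% of all genes, and both motifs in 19 (67.9%), against 8.97%. The CHR letters were not found in the windows of Ccnb1, Bub1, Birc5, Cenpe, Nuf2 and Nusap1. The 130 bases just before the RefSeq gene start (the first listed) are shown for 5 genes, chosen because they differed in their response to vanoxerine: Kif11 and Ect2 were higher, Cdk1 was lower, and Mki67 and Top2a were not called either way. Capitals mark the CHR and CCAAT letters on either strand, so that TTCAAA and ATTGG are the same motifs read on the other strand.
Kif11 (chr19:37376252-37376381, forward strand): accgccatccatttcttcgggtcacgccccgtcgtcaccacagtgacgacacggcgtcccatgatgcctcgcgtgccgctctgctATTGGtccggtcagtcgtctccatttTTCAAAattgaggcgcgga
Ect2 (chr3:27153879-27154008, reverse strand): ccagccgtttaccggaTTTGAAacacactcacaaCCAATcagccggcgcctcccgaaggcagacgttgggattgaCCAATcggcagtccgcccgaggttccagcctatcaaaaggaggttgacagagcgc
Cdk1 (chr10:69352913-69353042, reverse strand): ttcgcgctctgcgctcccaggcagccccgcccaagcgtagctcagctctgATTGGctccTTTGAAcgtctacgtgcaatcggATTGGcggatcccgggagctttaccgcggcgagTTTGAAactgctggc
Mki67 (chr7:135716380-135716509, reverse strand): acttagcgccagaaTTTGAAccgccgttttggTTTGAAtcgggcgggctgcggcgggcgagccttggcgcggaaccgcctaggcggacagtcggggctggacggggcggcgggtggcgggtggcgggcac
Top2a (chr11:99024190-99024319, reverse strand): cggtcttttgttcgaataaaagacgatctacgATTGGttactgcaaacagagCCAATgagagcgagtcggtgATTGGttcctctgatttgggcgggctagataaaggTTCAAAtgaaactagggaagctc

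All 5 stretches hold the CHR letters, and all but that of Mki67 hold a CCAAT box within these 130 bases, so the letters were present both in genes that were called and in genes that were not. Of the 22 genes with CHR letters in the 300-base window, 8 were higher, 3 were lower and 11 were not called, with a median log2 fold change of 0.07, while 21.0% of all tested genes were higher and 15.9% lower. Of the 6 without them, none was called (edgeR, 0 at an unadjusted p under 0.05, and 0 with DESeq2), at a median of -0.05. That count rested on all 4 libraries: without saline 1 the log2 fold change of Ccnb1 was 0.31, and without saline 2 that of Nusap1 was -0.22 and that of Cenpe 0.15. Among the 7 genes with no promoter entry, 2 were higher and 5 were not called.

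Mitosis genes took up nearly the same part of the reads in vanoxerine as in saline tumours, with small shifts of individual genes in both directions. The unit of level is CPM, the reads of a gene relative to the size of its library after edgeR's TMM scaling, and a gene was called when its edgeR quasi-likelihood test had a Benjamini-Hochberg adjusted p under 0.05 over all genes tested. Summed over the 35 genes, the saline libraries reached 2847 and 2873 CPM and the vanoxerine libraries 2954 and 2978 CPM. Of the 35 genes, 13 (37.1%) were called, and 36.9% of all tested genes were. In the higher direction the count was 10 (28.6%, against 21.0% of all genes), and in the lower direction it was 3 (8.57%, against 15.9%). With upper-quartile scaling, which moved all genes down, the split was 2 higher and 5 lower. The share called was thus near that of all tested genes, a set that includes genes with far fewer reads than the mitosis genes. The shares by direction come from that same set, so they do not compare genes with like reads. Counts in both directions among tested genes averaging at least 10 CPM are given by transcript length below. With only genes averaging at least 1 CPM kept, 31.4% of the mitosis genes were called, against 50.6% of all genes. With protein-coding genes only, the shares were 31.4% and 47.0%. The sizes were small: the median size of the log2 fold change was 0.094 in the mitosis genes and 0.39 over all genes, low-count genes included. The largest was 0.35, which 53.7% of all tested genes exceeded. The median log2 fold change with its sign was 0.03, beside -0.01 over all genes.

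**Figure D1:**
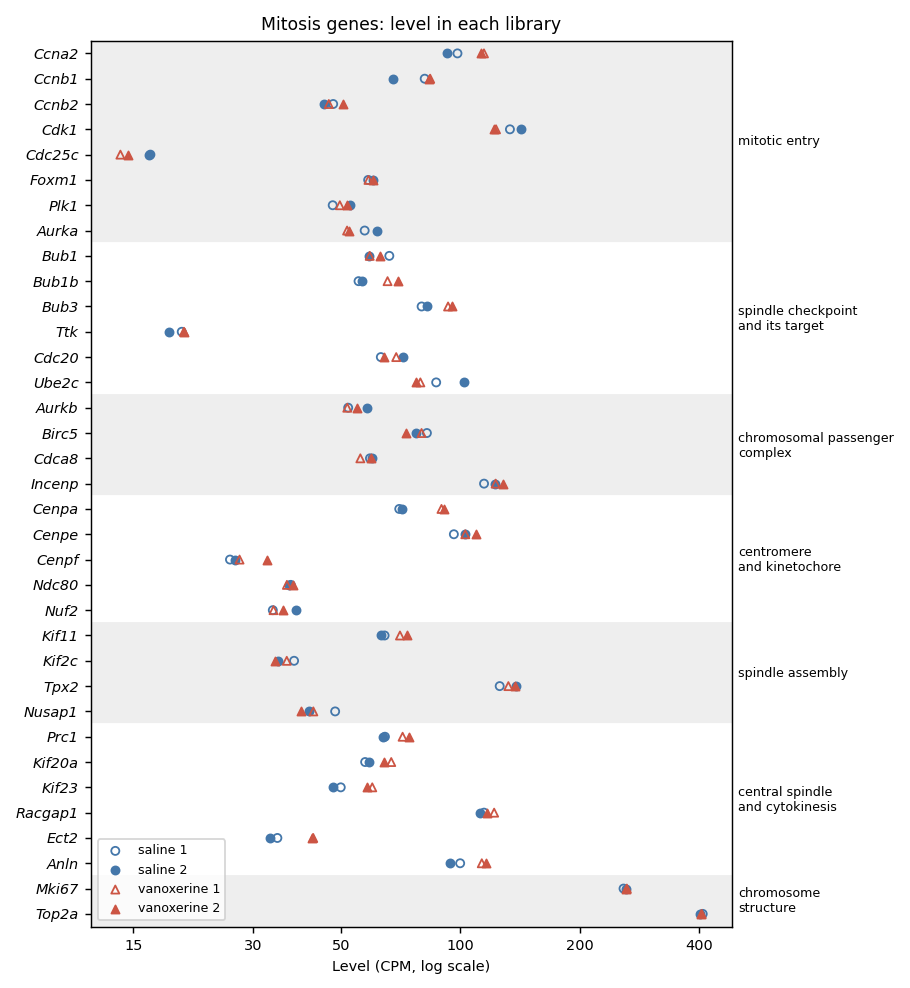
Level of each mitosis gene in each library, in CPM on a log axis, with circles for saline 1 and 2 and triangles for vanoxerine 1 and 2, grouped by role. The points of a gene lie close together for most genes, from 13.9 CPM at the lowest for Cdc25c to 407.8 CPM at the highest for Top2a, and the triangles sit right of the circles for most genes of the central spindle.

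The spread between libraries of a group was of the same order as many of these shifts. The median size of the log2 ratio between the 2 libraries of a group was 0.086 in saline and 0.056 in vanoxerine, and saline was the wider group in 24 of 35 genes. The groups did not overlap in CPM for 20 genes (57.1%), against 70.7% of all tested genes. For 18 of the 22 genes that were not called, the 95% interval of the log2 fold change lay within 0.3 of 0 on either side. The adjusted p of 5 of the 13 called genes lay between 0.04 and 0.05. Leaving out a vanoxerine library removed nearly all the calls. Without vanoxerine 1, only Cenpa was called (log2 fold change 0.38, edgeR adjusted p = 0.042), and without vanoxerine 2 none was (edgeR, with 4 at an unadjusted p under 0.05, and no other tool run on those libraries), while 15.9% and 15.2% of all tested genes were called. In these fits the remaining vanoxerine library is assumed to vary like the saline libraries. In the fits without a saline library, the remaining one is assumed to vary like the vanoxerine libraries, which lay closer together. Calls in those fits therefore carry little weight, and for single genes only their log2 fold changes are given. Without saline 1 or saline 2, the counts were 14 and 17 genes, against 48.9% and 47.7% of all tested genes.

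**Figure D2:**
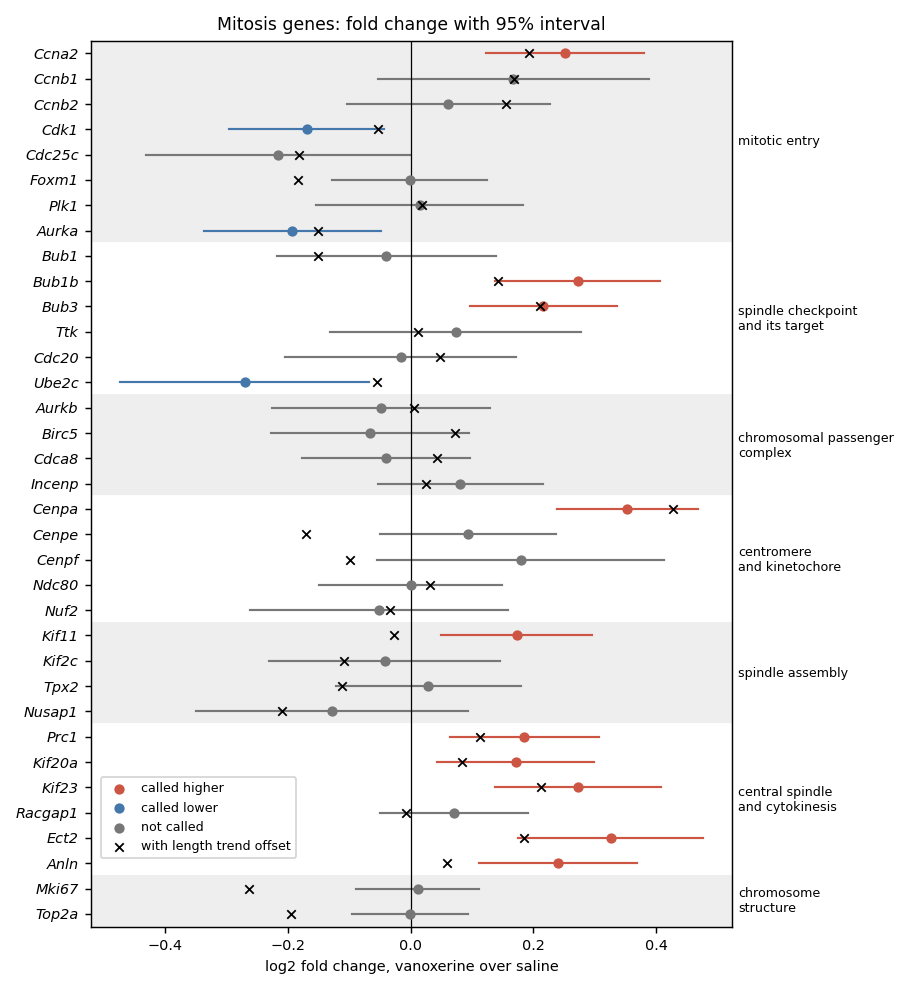
Log2 fold change of each mitosis gene, vanoxerine over saline, with its 95% interval from edgeR (red called higher, blue called lower, grey not called), and, as crosses, the value after each library's trend with transcript length was taken out. Cenpa and Ect2 lie farthest to the right and Ube2c farthest to the left, and the crosses of the long genes Mki67, Top2a, Cenpe and Cenpf lie left of their points.

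Of the 8 genes of mitotic entry, 1 was higher, 2 were lower and 5 were not called. Over all tested genes, low-count genes included, 21.0% were higher and 15.9% lower, and these shares stand beside the counts of each role below. Ccna2, at chr3:36564865-36572150 on the reverse strand, encodes cyclin A2, which activates the cyclin-dependent kinases in S phase and early mitosis. Its level was 98.3 and 92.4 CPM in saline and 114.6 and 112.3 CPM in vanoxerine, both vanoxerine libraries above both saline libraries. Its log2 fold change was 0.25 ± 0.053 (SE; edgeR adjusted p = 0.0135). Cdk1 (chr10:69335146-69352938, reverse strand), the kinase itself, moved the other way, at 133.3 and 141.9 CPM in saline and 122.9 and 121.8 CPM in vanoxerine. The groups did not overlap, and the log2 fold change was -0.17 ± 0.051 (edgeR adjusted p = 0.0467). Aurka (chr2:172356190-172370535, reverse strand), the kinase of spindle poles and centrosome maturation, was also lower, at 57.4 and 61.7 CPM in saline and 51.8 and 52.4 CPM in vanoxerine. Its log2 fold change was -0.19 ± 0.059 (edgeR adjusted p = 0.0475). Without saline 2 these values were smaller, at -0.11 for Cdk1 and -0.13 for Aurka. With log2(TPM + 1) both turned positive, at 0.082 for Cdk1 and 0.016 for Aurka, where all genes shifted by 0.23. Relative to the median of all genes, both stayed lower in all 17 alternative settings described below.

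The lowest value of this role belonged to Cdc25c, the phosphatase that activates CDK1, which stood at 16.6 and 16.4 CPM in saline and 13.9 and 14.5 CPM in vanoxerine. The groups did not overlap, but the gene missed the threshold at a log2 fold change of -0.22 ± 0.088 (edgeR adjusted p = 0.107). Cyclin B1, from Ccnb1, was at 81.3 and 67.6 CPM in saline and 83.9 and 83.3 CPM in vanoxerine. Here saline 2 stood below the other 3 libraries, and the interval of the log2 fold change ran from -0.053 to 0.39 (edgeR adjusted p = 0.203). Without saline 1 its log2 fold change was 0.31, and without saline 2 it was 0.053. Ccnb2 (0.06), Plk1 (0.015) and Foxm1 (-0.0018), the cyclin B2, Polo-like kinase and forkhead factor genes of the G2 and M programme, had log2 fold changes closer to 0, and their groups overlapped.

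In the spindle checkpoint and its target, 2 of 6 genes were higher, 1 was lower and 3 were not called, while 21.0% of all tested genes were higher and 15.9% lower. Bub1b (chr2:118598211-118641591, forward strand) encodes BubR1, part of the complex that inhibits the anaphase-promoting complex. It was at 55.4 and 56.5 CPM in saline and 65.5 and 69.6 CPM in vanoxerine, a log2 fold change of 0.27 ± 0.055 (edgeR adjusted p = 0.0116). Bub3 (chr7:131560222-131571895, forward strand), the partner through which BubR1 and Bub1 reach kinetochores, was at 79.8 and 82.5 CPM in saline and 93.1 and 95.5 CPM in vanoxerine. Its log2 fold change was 0.22 ± 0.049 (edgeR adjusted p = 0.0177), and for both genes the libraries of the groups were apart. Ube2c (chr2:164769898-164778822, forward strand), the ubiquitin-conjugating enzyme of the anaphase-promoting complex, was at 86.9 and 102.1 CPM in saline and 79.3 and 77.3 CPM in vanoxerine. Its log2 fold change of -0.27 ± 0.082 was the lowest of all 35 genes (edgeR adjusted p = 0.0472), and the 2 saline libraries differed from each other by more than the lower of them differed from vanoxerine. Without saline 2 its log2 fold change was -0.14. The checkpoint kinases Bub1 (-0.04) and Ttk (0.07) and the activator of the anaphase-promoting complex, Cdc20 (-0.02), were not called.

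None of the 4 genes of the chromosomal passenger complex, which corrects faulty attachments and then moves to the central spindle, was called (edgeR, 0 at an unadjusted p under 0.05, and 0 with DESeq2). Incenp, its scaffold, had the highest value, with 114.7 and 122.3 CPM in saline and 122.7 and 128.0 CPM in vanoxerine. The gap between the groups was narrower than the spread within saline, and the log2 fold change was 0.08 ± 0.055 (edgeR adjusted p = 0.306). Without saline 2 the log2 fold change of Incenp was 0.14. Birc5, which encodes survivin, had the lowest value, with 82.3 and 77.4 CPM in saline and 79.8 and 72.8 CPM in vanoxerine. Its groups overlapped, at a log2 fold change of -0.07 ± 0.065 (edgeR adjusted p = 0.484). Aurkb, the kinase of the complex, was at -0.05, and Cdca8, which encodes borealin, at -0.04.

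Cenpa was the only called gene among the 5 of the centromere and kinetochore, and it had the largest log2 fold change of the 35. Cenpa (chr5:30666777-30674830, forward strand) encodes the histone H3 variant that marks centromeres. It was at 70.1 and 71.2 CPM in saline and 89.6 and 90.9 CPM in vanoxerine, so that the gap between the groups was far wider than the spread within either. The log2 fold change was 0.35 ± 0.047, a fold of 1.28 (edgeR adjusted p = 0.00239). Nuf2, a subunit of the NDC80 complex that binds microtubules, was at 33.7 and 38.5 CPM in saline and 33.8 and 35.8 CPM in vanoxerine, with overlapping groups and a log2 fold change of -0.05 ± 0.085 (edgeR adjusted p = 0.684). Its partner Ndc80 was at -0.00021, and the kinetochore motor gene Cenpe was at 0.09, and at 0.15 without saline 2. The large coiled-coil gene Cenpf was at 0.18 ± 0.095 (edgeR adjusted p = 0.199), with vanoxerine 2 at 32.6 CPM above the other 3 libraries at 26.3 to 27.8 CPM. Without saline 2 the log2 fold change of Cenpf was 0.21.

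Among the 4 spindle assembly genes, Kif11 (chr19:37376403-37421859, forward strand), the kinesin that pushes spindle poles apart, was higher and the others were not called. Kif11 was at 64.4 and 63.0 CPM in saline and 70.4 and 73.2 CPM in vanoxerine. Its libraries did not overlap between groups, and the log2 fold change was 0.17 ± 0.050 (edgeR adjusted p = 0.0408). Nusap1, which bundles microtubules at chromosomes, had the lowest value, with 48.3 and 41.5 CPM in saline and 42.6 and 39.6 CPM in vanoxerine. The 2 saline libraries differed by more than the groups did, and the log2 fold change was -0.13 ± 0.090 (edgeR adjusted p = 0.325). The microtubule depolymerase gene Kif2c (-0.04) and the Aurora A activator gene Tpx2 (0.03) lay near 0. Leaving out saline 2 put Nusap1 at -0.22 and Tpx2 at 0.11.

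Of the 10 mitosis genes called higher, 5 belonged to the central spindle and cytokinesis. In this role 5 of 6 genes were higher, against 21.0% of all tested genes, and none was lower, with a median log2 fold change of 0.21. The 6 genes had read-weighted transcript lengths of 2769 to 4429 bases. Among tested genes averaging at least 10 CPM, 707 of 2392 were higher at 2000 to 3000 bases, and 1172 of 2794 at 3000 to 5000 bases. Ect2 (chr3:27097222-27153878, reverse strand), the exchange factor that activates RhoA at the division plane, was at 34.6 and 33.2 CPM in saline and 42.6 and 42.3 CPM in vanoxerine, a log2 fold change of 0.33 ± 0.061 (edgeR adjusted p = 0.0091). That of Ect2 was -0.09 with a transcript length offset (edgeR adjusted p = 0.665) and -0.08 in the authors' deposited table, and the gene was not called with the length trend taken out (0.19, edgeR adjusted p = 0.0554) or with log2(TPM + 1) (0.14, limma adjusted p = 0.406). Kif23 (chr9:61915905-61946774, reverse strand), the kinesin of the centralspindlin complex, was at 49.9 and 47.8 CPM in saline and 60.0 and 58.2 CPM in vanoxerine, a log2 fold change of 0.27 ± 0.055 (edgeR adjusted p = 0.0119). Kif23 kept its sign in all 17 alternative settings and was called in 11. It was not called with a transcript length offset (0.25, edgeR adjusted p = 0.289), log2(TPM + 1) (0.47, limma adjusted p = 0.085) or reads of protein-coding transcripts only (0.27, edgeR adjusted p = 0.075). Of its TPM, 64.8% to 75.7% lay in transcripts not annotated as protein-coding. Anln (chr9:22332012-22389188, reverse strand), the anillin scaffold of the contractile ring, was at 99.8 and 94.1 CPM in saline and 113.2 and 115.9 CPM in vanoxerine, a log2 fold change of 0.24 ± 0.052 (edgeR adjusted p = 0.0155). In all 3 genes both vanoxerine libraries stood above both saline libraries, and the gap between groups exceeded the spread within them.

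Prc1 (chr7:80294450-80316259, forward strand), which crosslinks the microtubules of the central spindle, was at 64.5 and 63.7 CPM in saline and 71.5 and 74.3 CPM in vanoxerine. Its log2 fold change was 0.19 ± 0.050 (edgeR adjusted p = 0.0313). Kif20a, the kinesin that brings the passenger complex to the midzone, was at 57.5 and 58.8 CPM in saline and 66.9 and 64.0 CPM in vanoxerine, a log2 fold change of 0.17 ± 0.052 (edgeR adjusted p = 0.0473). Racgap1, the partner of Kif23 in centralspindlin, was the gene of this role that was not called, with 114.7 and 111.9 CPM in saline and 121.6 and 116.4 CPM in vanoxerine and a log2 fold change of 0.07 ± 0.049 (edgeR adjusted p = 0.316). The count of 5 was not stable over settings. It was 1 with upper-quartile scaling (15.4% of all genes were higher there), 1 with the length trend taken out (17.9%) and 3 with scaling to library totals (37.3% of all genes called in either direction). It was 2 with reads of protein-coding transcripts only (36.9% in either direction) and 3 with the replicate number as a block (34.1%). It was 0 with a transcript length offset, without vanoxerine 1 and without vanoxerine 2, where 23.0%, 15.9% and 15.2% of all genes were called in either direction.

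The 2 genes most used as markers of dividing cells had log2 fold changes near 0 with narrow intervals, and neither was called (edgeR, 0 at an unadjusted p under 0.05, and 0 with DESeq2). Mki67, a coat protein of mitotic chromosomes, was at 257.6 and 261.7 CPM in saline and 262.5 and 260.7 CPM in vanoxerine. The interval of its log2 fold change ran from -0.089 to 0.11 around 0.01 (edgeR adjusted p = 0.862). Top2a, the topoisomerase that untangles sister chromatids, was at 407.8 and 402.5 CPM in saline and 405.3 and 404.3 CPM in vanoxerine. Its interval ran from -0.096 to 0.094 (edgeR adjusted p = 0.986). These were the mitosis genes with the highest CPM, and in both the 4 libraries overlapped. Other settings did call them: Mki67 was higher with log2(TPM + 1) (0.25, limma adjusted p = 0.0413), where all genes shifted by 0.23, and lower at -0.26 with the length trend taken out (edgeR adjusted p = 0.0111). Top2a was lower with that trend taken out (-0.20, edgeR adjusted p = 0.0103) and with a transcript length offset (-0.30, edgeR adjusted p = 0.0303).

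Genes with longer transcripts had higher fold changes, in the mitosis genes and over all genes. The length used is the mean length of a gene's transcripts weighted by their reads. Across genes, which are not independent replicates and which share the same 4 libraries, Spearman's rho between length and log2 fold change was 0.44 over the 35 genes and 0.39 over the 9871 tested genes whose CPM averaged 10 or more. In that larger set, genes under 1000 bases had a median log2 fold change of -0.33, with 76 higher and 454 lower of 795. At 1000 to 2000 bases the median was -0.09, with 483 higher and 779 lower of 2386. At 2000 to 3000 bases it was 0.05, with 707 higher and 481 lower of 2392. At 3000 to 5000 bases it was 0.17, with 1172 higher and 335 lower of 2794. From 5000 bases up it was 0.29, with 815 higher and 118 lower of 1504. Of the mitosis genes, 1 was higher and 2 lower of 10 at 1000 to 2000 bases. At 2000 to 3000 bases 4 of 12 were higher, and at 3000 to 5000 bases 5 of 9, with none lower in either class. The mitosis genes called higher had a median length of 2968 bases (1666 to 4815), those called lower 1362 bases (971 to 1893), and those not called 2753 bases.

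**Figure D3:**
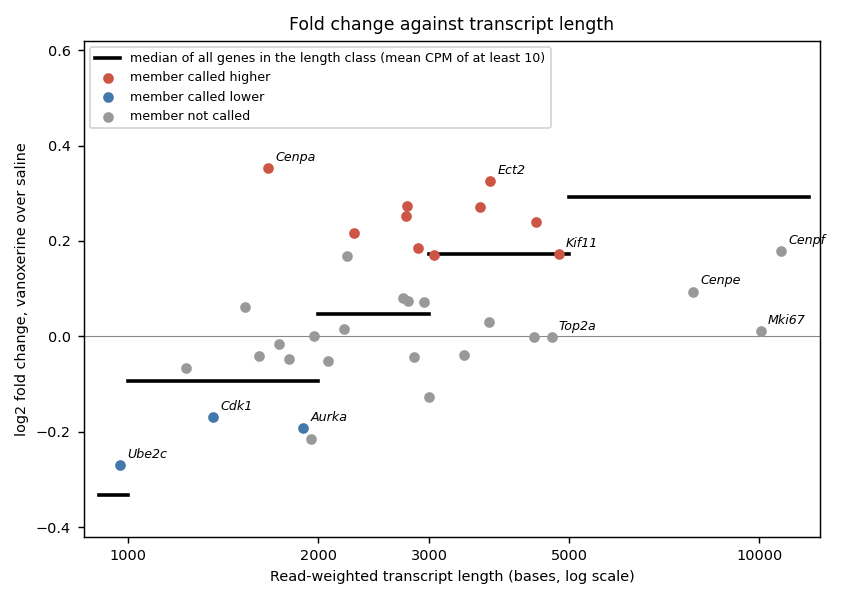
Log2 fold change of each mitosis gene against its read-weighted transcript length in bases (log axis), with black bars for the median of all genes of at least 10 CPM in each length class. The bars step up from -0.33 under 1000 bases to 0.29 from 5000 bases; Ube2c and Cdk1 lie at the short end below 0, Cenpa lies far above the bar of its class, and Mki67, Cenpe and Cenpf lie below theirs.

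Set against genes of like length, Cenpa lay farthest above the median of its class among the genes called higher. At a length of 1666 bases its log2 fold change of 0.35 compares with a median of -0.09 in its class, and with the trend taken out it was 0.43 (edgeR adjusted p = 0.00116). Ccna2 (0.19, edgeR adjusted p = 0.027), Bub3 (0.21, edgeR adjusted p = 0.0202) and Kif23 (0.21, edgeR adjusted p = 0.026) also stayed higher. The trend offset was chosen after the lengths had been seen. With it Ube2c (-0.055), Cdk1 (-0.053) and Kif11 (-0.03) came close to 0 and were not called. Anln (0.059), Kif20a (0.084), Prc1 (0.11), Bub1b (0.14), Aurka (-0.15) and Ect2 (0.19) kept their sign and were not called either. The genes called lower with it were 3 longer ones: Mki67 at -0.26 (edgeR adjusted p = 0.0111), Top2a at -0.20 (edgeR adjusted p = 0.0103) and Foxm1 at -0.18 (edgeR adjusted p = 0.0499). In all, 7 mitosis genes were called with this offset, against 33.6% of all genes, 4 of them higher (17.9% of all genes) and 3 lower (15.7%). The values of Mki67 and Top2a near 0 therefore hold for CPM, and not relative to other long genes.

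Levels per length, in TPM (reads relative to transcript length and library total, summed over each gene's transcripts), ran from 138 for Top2a to 5.90 for Cenpf as means of the 4 libraries. After Top2a came Cdk1 at 110, Ube2c at 99.5, Birc5 at 85.7, Incenp at 79.7 and Cenpa at 67.5 TPM. At the low end stood the checkpoint kinase gene Ttk at 8.25 and Cdc25c at 8.01 TPM. Only 2 neighbours in this order were apart in all libraries, Top2a above Cdk1 and Kif2c above Ttk, and every other gene overlapped the next. The order was different when reads were divided by the effective length of the protein-coding transcript with the most reads. Top2a was then 4th at 72.2, below Cdk1 (109.5), Ube2c (99.7) and Birc5 (94.6), and Incenp was 12th. Mki67, the second highest in CPM, was 20th in TPM at 22.9, since its transcript is 10061 bases long. The saline libraries had a summed TPM of 1197 and 1223, and the vanoxerine libraries 1399 and 1407. The TPM of both vanoxerine libraries was above that of both saline libraries in 26 of 35 genes, against 47.7% of all tested genes. In none of the 35 was it below both, and the share of all genes below both was not counted. On the log2(TPM + 1) scale the median of all genes was itself shifted by 0.23, and that of the mitosis genes was 0.24, so that most of the difference in the mitosis genes was shared by all genes on this scale.

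Within genes, some of the TPM was assigned to transcripts not annotated as protein-coding, such as retained introns, processed transcripts and targets of nonsense-mediated decay. In 16 mitosis genes this share averaged between 5% and 95%. It was lower in both vanoxerine libraries for 7 of them, Ccna2, Ccnb1, Bub3, Cenpa, Ndc80, Ect2 and Top2a, against 23.1% of the 7401 genes with such a share. It was higher in both for 1, Incenp, against 18.3%, and the groups overlapped in 8. The median difference between groups was -4.30 percentage points, beside -0.959 over all such genes. Salmon divides reads among overlapping transcripts by estimate, and with 2 libraries per group an exact permutation test cannot go below p = 0.333, so these shares are given without a test.

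**Figure D4:**
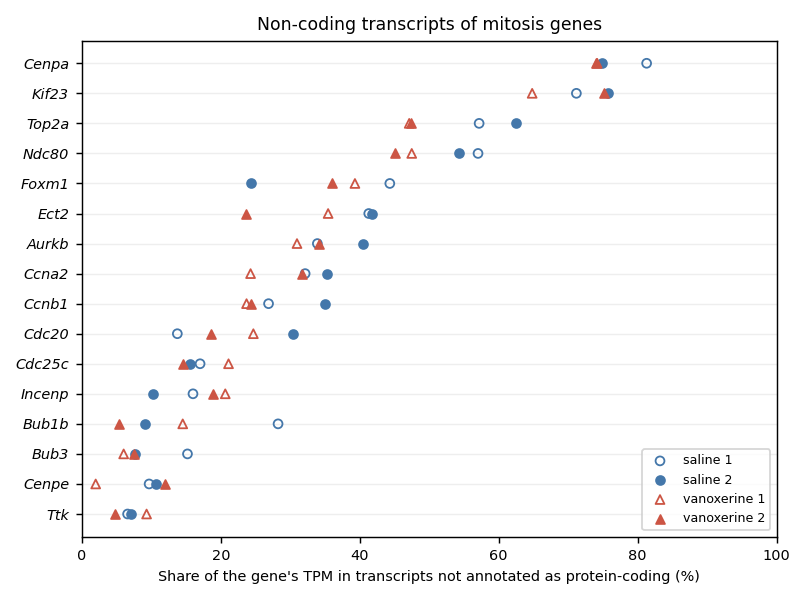
Share of each gene's TPM in transcripts not annotated as protein-coding, in percent, for the 16 mitosis genes with a mean share of 5% to 95%, with circles for saline and triangles for vanoxerine libraries. Top2a, Ndc80 and Ect2 have both triangles left of both circles, while in Foxm1, Cdc20 and Bub1b the libraries of a group lie far apart.

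Top2a had nearly equal CPM in both groups and unequal shares of its transcripts. Its full-length coding transcript Top2a-201, of 5221 bases, held 42.8% and 37.5% of the gene's TPM in saline and 52.9% and 52.7% in vanoxerine. The 803-base processed transcript Top2a-207 held 44.2% and 52.9% in saline and 37.7% and 37.4% in vanoxerine. In Ect2, the coding transcript Ect2-202 held 37.4% and 35.3% in saline and 52.0% and 64.1% in vanoxerine. Its 687-base transcript Ect2-205, annotated as a target of nonsense-mediated decay, held 41.3% and 41.8% in saline and 28.0% and 22.6% in vanoxerine. Both genes thus had a larger share in the long coding form in the vanoxerine libraries, without overlap between groups. The 678-base coding transcript Bub3-202 was listed at 0 in both saline libraries and at 11.0% and 13.3% of the gene's TPM in vanoxerine.

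The Cenpf level per length depended on a short transcript. Cenpf-202, of 358 bases, held 80.6% of the gene's TPM in saline 2 and 64.2% in vanoxerine 2 and was listed at 0 in saline 1 and vanoxerine 1. Cenpf accordingly stood at 2.09 TPM in saline 1 and 2.61 TPM in vanoxerine 1, against 10.4 TPM in saline 2 and 8.46 TPM in vanoxerine 2. Its CPM, by contrast, lay between 26.3 and 32.6 in all 4 libraries. The libraries with the short transcript came from different groups.

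The authors' deposited table of the comparison, in which the libraries used are not named in a way that matches the samples, called 3 of the 35 mitosis genes at an adjusted p under 0.05, against 35.2% of the 16621 genes with an adjusted p there. In the authors' deposited table Bub3 was higher at a log2 fold change of 0.37 (adjusted p = 0.000165), and Cenpa was higher at 0.24 (adjusted p = 0.0194). Top2a was lower there, at -0.28 (adjusted p = 0.00295, the authors' deposited table). The fit here with a transcript length offset, which corrects each library for the lengths of the transcripts it used, gave values close to these for all 3. Bub3 was at 0.38 (edgeR adjusted p = 0.02) and Top2a at -0.30 (edgeR adjusted p = 0.0303), and these were its only calls, against 23.0% of all genes. Cenpa was at 0.24 and was not called with that offset (edgeR adjusted p = 0.0589). The authors' deposited table has Ect2 at -0.08, the offset put it at -0.09 (edgeR adjusted p = 0.665), and summed reads at 0.33.

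**Figure D5:**
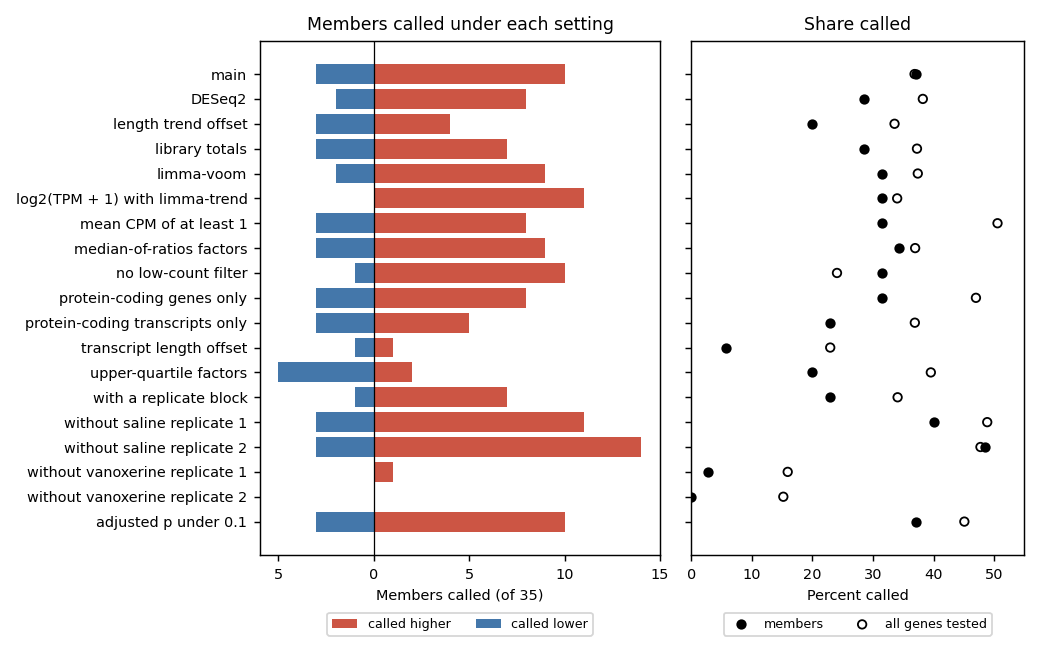
Left, number of the 35 mitosis genes called higher (red, to the right) and lower (blue, to the left) under each setting. Right, percent of the mitosis genes (filled) and of all genes tested (open) that were called; the filled points lie left of the open ones except at the top, without a low-count filter and without saline 2, and the fits without vanoxerine 1 or 2 stand at 1 and 0 genes.

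Across 17 alternative settings that change the values, 9 of the 13 called genes kept the sign of their log2 fold change in all. Cenpa was called in 15 of the 17, and Ccna2 and Bub3 in 13 each. Kif20a was called in 4, Kif11 in 6, Aurka in 7 and Prc1 in 9. DESeq2 did not call Kif20a (adjusted p = 0.0714), Kif11 (adjusted p = 0.0528) or Aurka (adjusted p = 0.0532). Upper-quartile scaling moved the median of all genes to -0.14, and there 39.6% of all genes were called, 15.4% higher and 24.1% lower, and 7 mitosis genes were, 2 higher and 5 lower, at a median of -0.11. Relative to the median of all genes, 11 of the 13 called genes kept their side in all 17 settings. The count of mitosis genes called was 12 with median-of-ratios factors (37.0% of all genes), 10 with DESeq2 (38.2%), 10 with library totals (37.3%) and 11 with limma-voom (37.4%). It was also 11 with log2(TPM + 1) (34.0% of all genes), with a mean CPM of at least 1 (50.6%), with no low-count filter (24.1%) and with protein-coding genes only (47.0%). With reads of protein-coding transcripts only it was 8 (36.9% of all genes), with the replicate number as a block 8 (34.1%), and at an adjusted p under 0.1 it was 13 (45.1%).

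Other cell cycle genes, 192 in 8 lists, were read in the same fit to describe the rest of the pathway. Of these 38 were higher and 30 lower, with a median log2 fold change of 0.00034 and a median size of 0.17. Over all tested genes 21.0% were higher and 15.9% lower, and the median size was 0.39. The same shares stand beside the counts of each list below. The split of the 192 genes was 30 higher and 43 lower with library totals, 16 and 64 with upper-quartile scaling, and 49 and 5 with log2(TPM + 1). Members of the lists overlap in function with the mitosis genes, and no list was tested as a set. Among 34 other kinetochore and checkpoint genes, 2 were higher and 6 lower, at a median of -0.10. The inner kinetochore genes Cenpw (-0.59 ± 0.071), Cenpn (-0.40 ± 0.068) and Cenpm (-0.69 ± 0.14) and the checkpoint gene Mad1l1 (-0.32 ± 0.062) fell. Cenpw was at 31.4 and 30.5 CPM in saline and 20.8 and 20.4 CPM in vanoxerine. These stand beside Cenpa, which rose by 0.35, so that genes of the centromere moved in both directions.

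Among 35 other genes of the spindle, centrosome and cytokinesis, 9 were higher and 4 lower, at a median of 0.14. The centrosome scaffold gene Cep192 (0.47 ± 0.048), the RhoA-inactivating Arhgap11a (0.46 ± 0.059), the spindle pole gene Aspm (0.52 ± 0.071) and Numa1 (0.27 ± 0.045) rose. The 19 genes of cohesin and condensin hold sister chromatids together and compact chromosomes. Of these 8 were higher, against 21.0% of all tested genes, at a median of 0.14. None was lower (edgeR, 2 lower at an unadjusted p under 0.05, and 0 with DESeq2), against 15.9% of all tested genes. The count was not compared with genes of like length. The condensin genes Smc2 (0.53 ± 0.054) and Ncapg2 (0.64 ± 0.11), the cohesin loader Nipbl (0.52 ± 0.060) and the cohesin subunit Rad21 (0.25 ± 0.049) rose. Smc2 was at 61.0 and 57.4 CPM in saline and 84.8 and 86.4 CPM in vanoxerine, with no overlap between groups. Of 19 genes of the anaphase-promoting complex and mitotic exit, 3 were higher and 4 lower, at a median of -0.12. Within this complex the large subunit Anapc1 (0.26 ± 0.049) and Anapc5 (0.23 ± 0.042) rose, and the small subunits Anapc16 (-0.43 ± 0.069) and Anapc13 (-0.56 ± 0.095) fell. With either correction for transcript length Anapc1 was below 0.

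Regulators outside mitosis itself also moved in both directions, as all tested genes did. Of 23 genes that regulate the passage from G2 to M, 4 were higher and 4 lower, at a median of 0.01. Wee1 (0.58 ± 0.10), the kinase that inhibits CDK1, and Lin54 (0.62 ± 0.11), the subunit of the MuvB core that binds the CHR, rose. Arpp19 (-0.54 ± 0.067), whose phosphorylated product inhibits the phosphatase opposing CDK1, and Cdca3 (-0.35 ± 0.048) fell, though Cdca3 was at 0.022 with log2(TPM + 1). Of 32 DNA replication genes, 3 were higher and 8 lower, at a median of -0.05. Here Rrm1 (0.28 ± 0.048), a subunit of ribonucleotide reductase, rose, and the primase gene Prim1 (-0.40 ± 0.049) and the clamp loader genes Rfc3 (-0.39 ± 0.060) and Rfc4 (-0.40 ± 0.080) fell.

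Of 14 regulators of G1 and S phase entry, 3 were higher and 2 lower, at a median of 0.04. The cyclin D1 gene Ccnd1 (0.51 ± 0.052) and the repressor gene E2f8 (0.47 ± 0.078) rose, and Cdk4 (-0.44 ± 0.047), which encodes the partner of cyclin D1, and Myc (-0.46 ± 0.052) fell. Among 16 cell cycle inhibitors, 6 were higher and 2 lower, at a median of 0.04. Cdkn1a (0.44 ± 0.042), which encodes the inhibitor p21, Ccng1 (0.54 ± 0.058) and Rb1 (0.76 ± 0.11) rose, and Gadd45a (-0.85 ± 0.069), a stress-response gene, fell. Ccnd1 was at 180.8 and 194.9 CPM in saline and 267.3 and 266.8 CPM in vanoxerine, and Cdkn1a at 156.5 and 157.7 CPM in saline and 213.5 and 211.4 CPM in vanoxerine. Every gene named from these lists passed the edgeR test, with adjusted p from 0.000369 (Gadd45a) to 0.0119 (Cenpm).

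Several lists of cell type markers had larger log2 fold changes between groups than the mitosis genes, whose median size was 0.094. The median size was 2.09 in macrophage, 1.00 in fibroblast, 1.05 in endothelial, 1.13 in neutrophil and 1.28 in erythroid markers, and 0.16 in T and NK cell markers. All 15 macrophage markers were higher in vanoxerine, with summed CPM of 1614 and 1679 in saline and 6870 and 6889 in vanoxerine, led by Lyz2, Apoe and C1qb. Of 14 fibroblast markers 1 was higher and 12 were lower, with summed CPM of 1109 and 1134 in saline and 747 and 756 in vanoxerine. Of 10 neutrophil markers, 9 of them tested, 6 were lower, with summed CPM of 885 and 925 in saline and 511 and 503 in vanoxerine. Of 9 erythroid markers, 8 of them tested, 7 were lower, from 13970 and 15083 CPM in saline to 6248 and 5903 CPM in vanoxerine, led by Hba-a1, Hbb-bs and Hbb-bt. The summed levels of T and NK cell markers (2 higher and 3 lower of 13) were 822 and 847 CPM in saline and 824 and 786 CPM in vanoxerine. Those of B and plasma cells (1 higher and 2 lower of 8) were 38.0 and 35.3 CPM against 37.8 and 36.0 CPM, and those of endothelium (2 higher and 6 lower of 11) 182 and 179 CPM against 181 and 186 CPM. Of 14 epithelial and colon markers, 9 of them tested, 3 were higher and 1 lower, with summed CPM of 19.1 and 22.1 in saline and 36.7 and 38.6 in vanoxerine. In that list Cdh1 was at 11.3 and 13.5 CPM in saline and 25.4 and 27.6 CPM in vanoxerine, Epcam at 1.75 to 4.22 CPM and Krt18 at 0.940 to 2.17 CPM. Cdx2 was the marker at 0 in all 4 libraries. The part of these cell types in the values of the mitosis genes was not tested.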

How the data were processed

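RNA-seq of 4 tumours' libraries (saline 1 and 2, vanoxerine 1 and 2) was used. The submitters' processing notes name fastp, Salmon 1.3.0, DESeq2 and GRCm38, with annotation release, settings and strand handling not given in the sources used here. Per the file headers, the authors deposited for each of 140992 transcripts an estimated count, a TPM (scaled to length and library total by Salmon) and an effective length in bases. The authors' deposited table lists per gene a base mean (a signal after their normalization), the log2 fold change, its standard error, and raw and adjusted p-values. Its 4 FPKM columns have names that match no sample and were not used.

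Transcripts were assigned to genes with GENCODE release M21 on GRCm38 (139791 matched, 99.56% to 99.63% of reads), and estimated counts were summed and rounded. The quasi-likelihood test of edgeR 4.0.16 (R 4.3.3; TMM, minimum count 10, minimum total 15, no block) was run over all genes, with Benjamini-Hochberg adjustment and calls under 0.05. A check on simulated data used larger fold changes than those of the mitosis genes and the same spread in both groups. It cannot show how the test performs on shifts as small as these. Salmon divides shared reads by estimate, so values of near-identical or overlapping genes are less certain. Alternatives used DESeq2 1.42.0, limma 3.58.1 (voom and trend), other scalings, filters and length corrections. Gene members and lists were chosen with earlier results of these data known. Values per library are given for every called gene, the highest and lowest gene of each role and Mki67; other lists name up to 4 called genes with the smallest p, and marker lists up to 3 genes with the highest CPM and those at 0. Further genes named beside them were chosen after their values were seen.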

Additional observations from a re-analysis of the deposited data

How the results depend on the processing

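Of the 13 mitosis genes called (10 higher, 3 lower), counts differed by over 1.5 times in these settings. With the length trend taken out 7 were called (4 higher), with reads of protein-coding transcripts only 8 (5 higher), with a transcript length offset 2 (1 higher, 1 lower) and with upper-quartile scaling 7 (2 higher, 5 lower). The lower count was 0 with log2(TPM + 1) and 1 without a low-count filter. Leaving out each library gave 0 to 17 called, 0 to 14 higher and 0 to 3 lower. The replicate block gave 8 called (7 higher, 1 lower); the numbers only name the libraries, since nothing in the labels pairs them and the deviations of saline 1 and vanoxerine 1 from their group means had a correlation of -0.039 over 9871 genes. In the other settings the counts stayed within 1.5 times.

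The mitosis genes' median log2 fold change was 0.039 above that of all genes, -0.000117 without a filter, and 0.032 to 0.083 on leaving out a library. Sign changes with a call in either setting were those of Cdk1 (0.082), Aurka (0.016) and Cdca8 (0.25, adjusted p = 0.041 with limma) with log2(TPM + 1), where all genes shifted by 0.23, of Kif11 (-0.027) and Mki67 (-0.26) with the length trend taken out, and of Ect2 (-0.093) with the transcript length offset. The other 78 sign changes had no call in either setting.

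Of the other cell cycle genes 68 were called (38 higher, 30 lower). The higher count was 23 with the length trend taken out, the lower count was 5 with log2(TPM + 1), the length offset gave 38 called (20 higher, 18 lower), and upper-quartile scaling gave 16 higher and 64 lower. Leaving out a library gave 15 to 112 called, 9 to 61 higher and 6 to 51 lower. Their median was 0.010 above that of all genes, -0.029 without a filter, and 0.0089 to 0.047 on leaving out a library. Dividing by the effective length of the protein-coding transcript with the most reads moved the median level of the mitosis genes from 28.8 to 21.6 TPM. It moved Top2a from 138 to 72.2 TPM, which put Cdk1, Ube2c and Birc5 above it. Except where an offset or scaling is itself the change, the cause was not tested.

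Each group has 2 libraries, of 67289273 to 75748162 reads, and many differences were near the spread between them. Depth was not varied.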
